A study of Mus musculus with 45 samples.

Results

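The ubiquitin ligase and deubiquitinase genes described here are 49 mouse genes, chosen by name as enzymes, scaffolds and substrate receptors of the ubiquitin system. Each was followed along its longest annotated transcript of at least 20 kb, and 11818 genes in all had such a transcript. The members are 19 deubiquitinases of the USP family, 14 HECT ligases, 4 UBR ligases, the hybrid enzyme Birc6, 5 cullins, 3 F-box receptors and 3 RING ligases. Their transcripts ran from 22.0 kb (Usp42) to 330.1 kb (Nedd4l), with a median of 91.1 kb, against 47.0 kb for all 11818 genes.

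Mouse embryonic stem cells (ESCs) in 2i medium were arrested with DRB, which keeps RNA polymerase II from entering productive elongation. DRB was washed out, and nascent RNA was labelled with 4-thiouridine (4sU) for the last 10 min before each harvest. The block lasted 4 h per the labels and the methods, and 3 h per the results text of the study. WT/WT cells carried wild-type Polr2a, the gene of the largest polymerase II subunit, WT/slow cells carried the R749H change on 1 allele, and slow/slow cells carried it on both. Each genotype was harvested 5, 15 and 30 min after DRB removal in 3 replicates that the methods call biological, which gives 27 of the 45 samples of the series, and the other 18 samples, taken at 0 min or without DRB, were not analysed. The labels do not say whether replicates came from separate cell lines, so the p-values measure spread among these samples.

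Ubiquitin is joined to proteins by a chain of enzymes in which E1 activates it, E2 carries it and an E3 ligase chooses the substrate. HECT ligases take ubiquitin onto their own catalytic cysteine, and RING ligases and cullin complexes bring a loaded E2 to the substrate. Some UBR ligases read destabilising amino termini, and deubiquitinases remove the mark. In ESCs this system sets the lifetime of pluripotency factors, cell cycle regulators and signalling proteins.

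The measured quantity was the wave-front boundary, the distance from a transcript's start to the far end of the wave of nascent RNA, given in steps of 100 bases and written here in kb. A boundary says how far the wave had reached and not how strongly a gene was transcribed. The highest boundary of any gene lay between 56 and 59.2 kb in every sample, although the members' transcripts reach 330.1 kb. The deposited values hold no read counts, so the depth behind a boundary is unknown and precision rests on the spread of 3 replicates. The tables do not say whether the commonest value, 2.5 kb, is a measured front or stands for no wave found. It was counted apart, and group means, differences and tests use the other boundaries. A difference was called where limma, fitted over all genes with at least 2 such boundaries in each group, gave a Benjamini-Hochberg adjusted p under 0.05.

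The cell type on the labels was checked on the fixed markers, though a boundary is no expression level. Of 8 ESC markers, 6 had a transcript of at least 20 kb, and 47 of their 54 boundaries at 5 min were other than 2.5 kb. Tet1, Tfcp2l1 and Nr5a2 had 9 of 9, Jarid2 8, Dnmt3b 7 and Esrrb 5. The 10 markers of other cell types had 41 of 90 such boundaries, 32 at 2.5 kb and 17 without a call. They went both ways: the neuronal genes Rbfox3 and Grin2b and the fibroblast gene Col1a2 had 0 of 9 and the blood gene Ptprc had 1, while Fn1 had 9, Pdgfra and Ryr2 7, Syt1 and Cd247 6 and Ttn 5.

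Some libraries stood apart, and their values come before the comparisons. At 15 min, replicate 2 of WT/WT cells had 37 of the 49 members at 2.5 kb, against 14 and 16 in replicates 1 and 3. Among all genes the same library had 48.4% of boundaries at 2.5 kb, against 37.9% and 33.1%. At 5 min, replicate 2 of WT/WT cells had a member median of 20.6 kb, against 11.3 and 14.3 kb, and replicate 2 of WT/slow cells had 19.2 kb, against 12.45 and 14.3 kb. Each test was also run without these libraries, and the 15-min counts of 2.5-kb boundaries without WT/WT replicate 2.

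**Figure D1:**
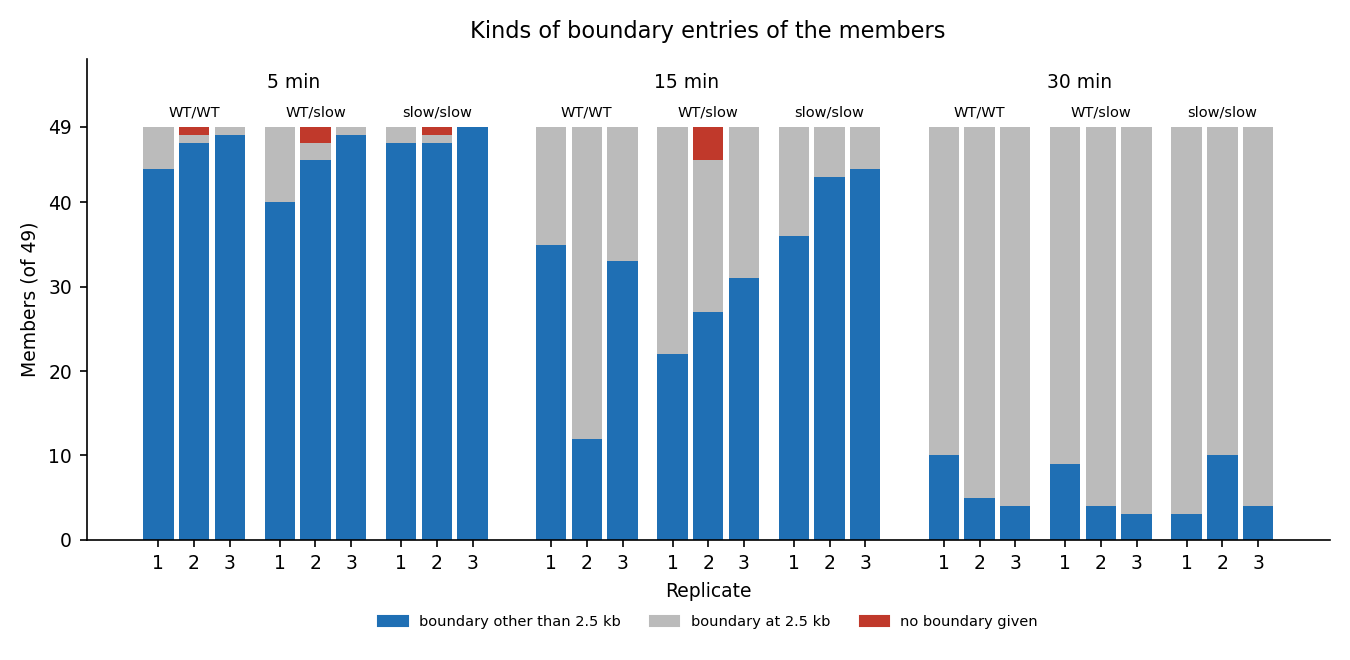
Number of the 49 members (vertical axis) with a boundary other than 2.5 kb, at 2.5 kb or without a boundary, in each replicate of each genotype at 5, 15 and 30 min after DRB removal. WT/WT replicate 2 at 15 min has 37 members at 2.5 kb, and at 30 min 389 of the 441 entries are at 2.5 kb.

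At 5 min few member boundaries stood at 2.5 kb, and at 15 min many more did. Boundaries at 2.5 kb made up 7 of 147 member entries in WT/WT cells, 12 in WT/slow cells and 3 in slow/slow cells at that time. After 15 min they made up 67, 63 and 24 of 147. So at 15 min a member had a boundary other than 2.5 kb in 123 of 147 slow/slow entries and in 80 of 147 in each of the other genotypes. Over all genes the share at 2.5 kb at 15 min was 39.8% in WT/WT, 35.4% in WT/slow and 28.4% in slow/slow cells. Without WT/WT replicate 2 the WT/WT share was 30 of 98 member entries (30.6%), under the 42.9% of WT/slow and above the 16.3% of slow/slow cells, and 35.5% over all genes.

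At 15 min, 10 members stood at 2.5 kb in all 3 WT/WT replicates, namely Usp8, Usp10, Usp14, Usp24, Usp28, Ubr4, Wwp1, Wwp2, Cul2 and Cbl, where 19.9% of the 11818 genes did so. Among WT/slow samples 8 members did so (18.3% of all genes), and in slow/slow cells 3, which were Usp16, Usp42 and Wwp2 (12.9%). Length went with this count: over the 49 members, Spearman's rho between transcript length and the number of 15-min boundaries at 2.5 kb was −0.398, and over 8007 genes with 9 entries it was −0.490, both across genes that share the same libraries. The 12 members under 60 kb had 23 of 36 entries at 2.5 kb in WT/WT cells, 28 in WT/slow cells and 12 in slow/slow cells, and the 37 longer members had 44, 35 and 12 of 111. With WT/WT replicate 2 left out the WT/WT entries were 12 of 24 and 18 of 74, the 10 members at 2.5 kb were the same, and rho was −0.450 over members and −0.491 over 8099 genes.

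Where a boundary was found, slow/slow fronts at 15 min lay in a narrow band. The median over members was 32.1, 33.8 and 29.6 kb in the 3 slow/slow replicates, with interquartile ranges of 6.48, 5.45 and 5.53 kb. In WT/WT cells the medians were 32.3, 10.2 and 34.2 kb and the interquartile ranges 35.4, 31.3 and 32 kb, and in WT/slow cells the ranges were 29.5, 28.9 and 24.2 kb. Every slow/slow range at 15 min was thus under every range of the other genotypes. At 5 min the ranges were 3.95, 2.35 and 3.10 kb in slow/slow cells and 7.43, 4.50 and 8.15 kb in WT/WT cells, again without overlap. Over all genes at 15 min the interquartile ranges were 24.2, 23.0 and 19.7 kb in slow/slow cells and 26.5, 20.7 and 26.5 kb in WT/WT cells, which overlap. At 5 min they were 5.60, 4.80 and 5.20 kb against 8.30, 9.90 and 8.10 kb, without overlap as in the members. Lengths differ between these sets, and genes of like length were not compared. In slow/slow cells at 15 min the ranges were 8.3, 7.2 and 10.2 kb in members under 60 kb. The longer members had 6.1, 4.65 and 5.65 kb.

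Replicates of a member also lay closer together in slow/slow cells. The median SD among 3 boundaries of a member was 2.5 kb in slow/slow cells at 5 min (45 members) against 6.95 kb in WT/WT cells (43 members) and 5.90 kb in WT/slow cells (37 members). At 15 min it was 3.18 kb (32 members), 9.79 kb (10 members) and 16.8 kb (13 members) in the same order. These medians cover different members, since few members had 3 such boundaries in WT/WT cells at 15 min.

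**Figure D2:**
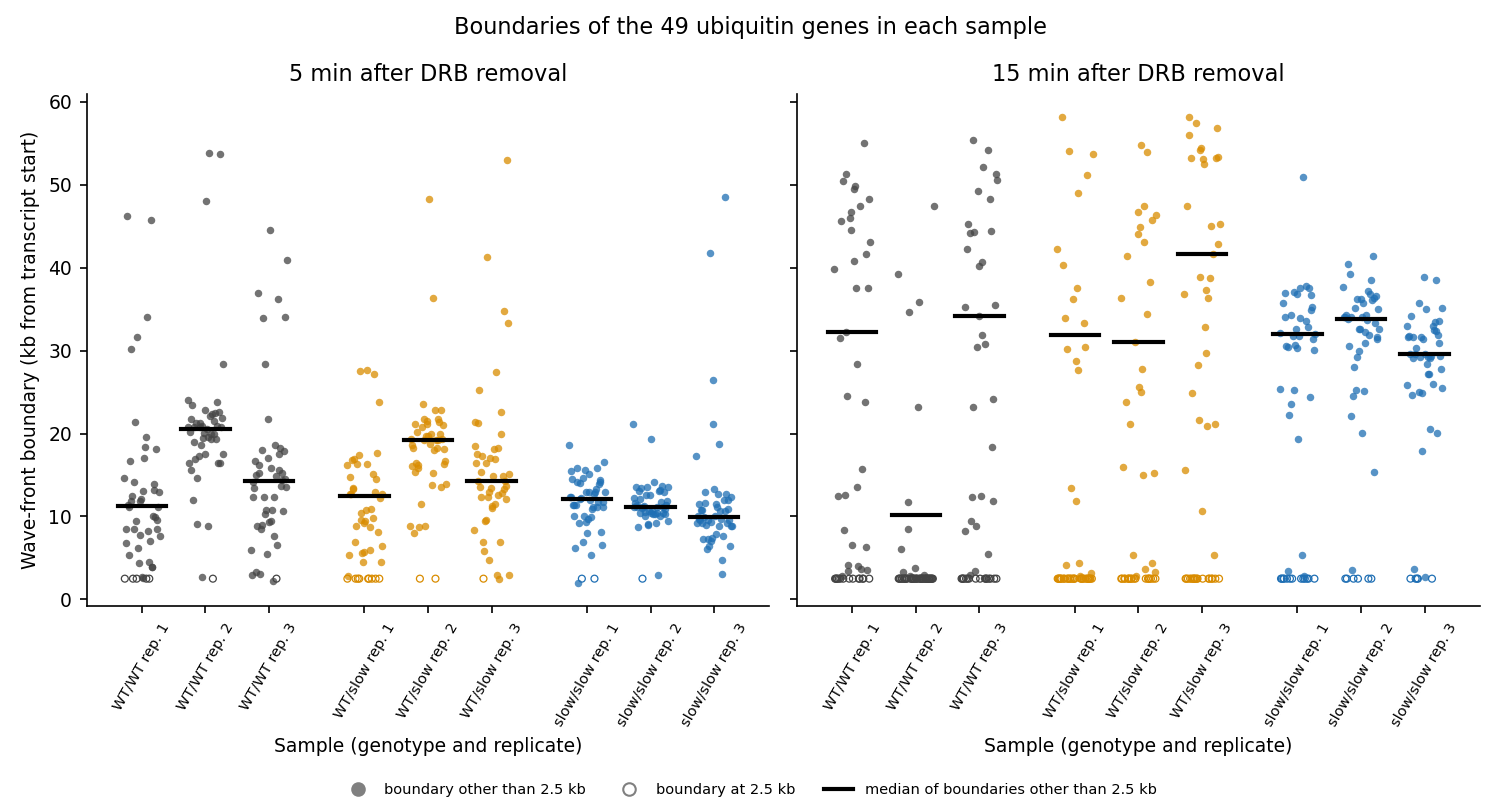
Boundary of each of the 49 members (points, kb from the transcript start) in each sample at 5 and 15 min, with open points at 2.5 kb and a bar at the median of the other boundaries. At 15 min the slow/slow points gather around medians of 29.6 to 33.8 kb, and WT/WT replicate 2 has a median of 10.2 kb.

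The comparison of slow/slow with WT/WT cells at 5 min asks how far the slow polymerase travels soon after release. Of 48 members tested, 42 had a lower mean boundary in slow/slow cells, with a median difference of −3.33 kb. Over all 7044 genes tested the median was −2.77 kb and 5248 genes (74.5%) lay below 0, against 87.5% of the members. In limma 0 members were called, and 1 gene of 7044 (0.0142%) was. An unadjusted p under 0.05 was found in 4 of 48 members and in 438 of 7044 genes. Without WT/WT replicate 2 the members' median was −1.25 kb and 25 of 44 lay below 0, and the median of all genes was −0.683 kb.

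With 3 boundaries other than 2.5 kb in each genotype, 41 members could be compared replicate by replicate at 5 min. In 5 of them (Usp32, Usp46, Ubr4, Herc2 and Smurf2) every slow/slow boundary was lower than every WT/WT boundary, and among all genes this held for 769 of 4716 (16.3%). Higher slow/slow boundaries without overlap were found in 0 of the 41 members and in 1.42% of all genes. At 15 min only 8 members had all 6 boundaries, of which Cblb was lower without overlap (16.4% of 1618 genes) and Usp40 higher (9.95%).

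The same comparison at 15 min could be made in 29 of the 49 members, because the others had fewer than 2 boundaries other than 2.5 kb in a genotype. The median difference was −1.13 kb, with 16 members below 0 and 13 above, and over the 4029 genes tested it was −0.100 kb. Cul5 and Usp40 rose, which is 2 of 29 members where 4.59% of all genes tested rose, and Usp34 fell, where 3.28% fell. At an unadjusted p under 0.05 in limma there were 7 of 29 members and 876 of 4029 genes. Without WT/WT replicate 2 the median was −5.82 kb with 17 of 27 below 0 and the same 3 called, but it turned to 8.60 kb (1 called) without WT/WT replicate 1, to 3.62 kb (2 called) without WT/WT replicate 3 and to 1.80 kb (2 called) without slow/slow replicate 3. Without slow/slow replicate 2 it was 0.8 kb, with 0 called by limma. In that fit 7 of 26 members and 626 of 3364 genes had an unadjusted p under 0.05. With the 2.5-kb entries kept as values the median turned to 9.77 kb over 49 members, against 0.9 kb over the 8389 genes tested. The members called were Ube3a, Usp8, Usp28 and Usp53, each higher, where 585 of the 8389 genes rose and 108 fell.

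**Figure D3:**
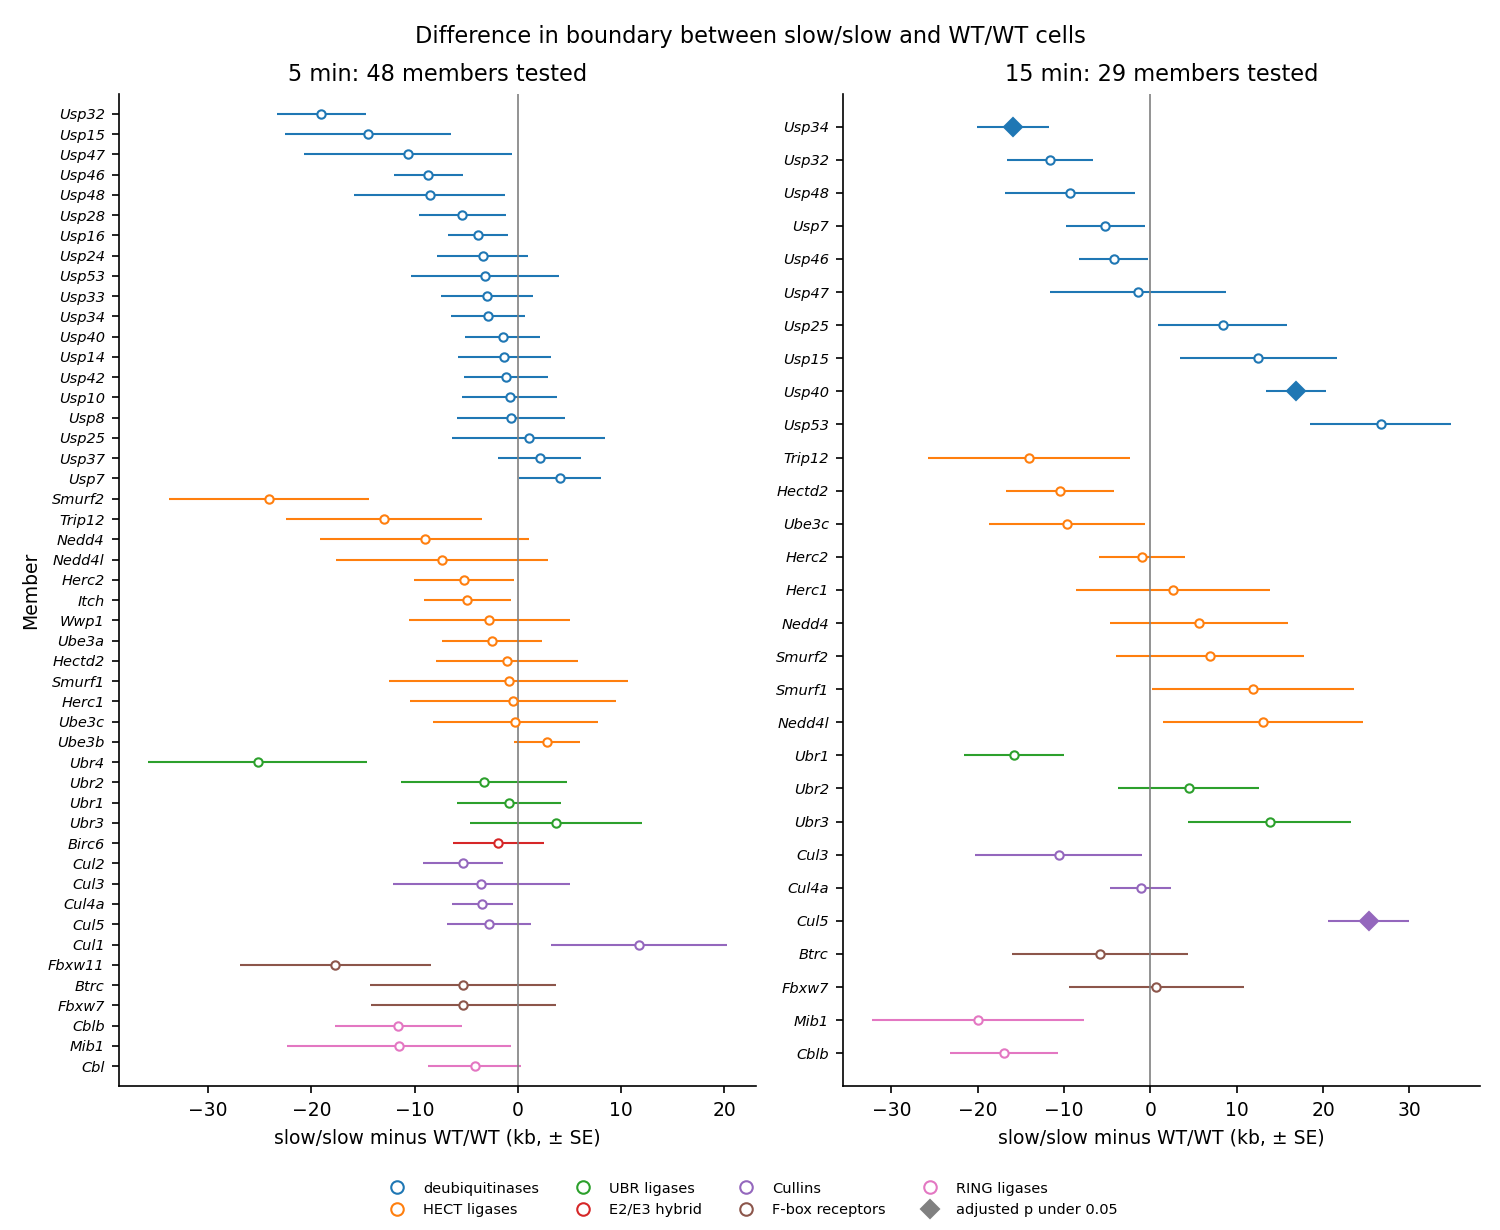
Difference in mean boundary between slow/slow and WT/WT cells (horizontal axis, kb, with its SE) for each member tested at 5 min (48 members) and 15 min (29 members), coloured by class. Filled diamonds mark Cul5, Usp40 and Usp34, the members with an adjusted p under 0.05.

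WT/slow cells, which carry both forms of the polymerase, were compared with the same WT/WT samples, so the comparisons are not independent. At 5 min the median difference over 47 members was 0.133 kb, with 0 members and 0.0141% of all genes called by limma. An unadjusted p under 0.05 was found in 2 members and in 313 of 7102 genes. The 5-min median was −2.33, 1.63 and −0.025 kb without WT/WT replicate 1, 2 or 3. Without WT/slow replicate 1, 2 or 3 it was 1.32, −1.33 and −0.717 kb. At 15 min 22 members could be tested and the median was 1.69 kb. Usp25 and Usp40 rose (3.29% of 3802 genes rose) and Usp34 fell (1.92% fell). With the replicate number as a block, 1 of these calls, Usp34, was left. With only the samples of both genotypes in the fit 0 were left. In that fit 4 members and 572 of 3801 genes had an unadjusted p under 0.05 in limma. The 15-min median was 21.7, 1.85 and 16.3 kb without WT/WT replicate 1, 2 or 3 (0, 1 and 1 called), and 0.308, 1.5 and −2.23 kb without WT/slow replicate 1, 2 or 3 (1, 0 and 2 called). The counts of 0 by limma had 6 of 8 and 2 of 15 members at an unadjusted p under 0.05, in that order. Over all genes tested these were 412 of 2398 and 483 of 2830.

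Progress is the mean boundary at 15 min minus that at 5 min, which fell below 0 in 7 of 31 members in WT/WT cells (33.3% of all genes tested), in 1 of 25 in WT/slow cells (23.2%) and in 1 of 45 in slow/slow cells (14.2%). In slow/slow cells 45 members could be tested, with a median of 20.2 kb, and the front was called farther at 15 min in 21 of them (30.8% of all genes tested), from 12.8 kb in Ube3b to 26.5 kb in Cul3. In WT/WT cells the median was 16.1 kb over 31 members, and 9 were called farther (14% of all genes tested): Usp46, Usp32, Herc2, Usp7, Cblb, Hectd2, Usp34, Ubr1 and Cul3, from 11.2 to 33.6 kb. For WT/slow waves it was 16.1 kb over 25 members, of which 10 were called (18% of all genes tested). Among transcripts of at least 60 kb, 9 of 26 members were called farther in WT/WT cells, against 603 of 2659 genes. WT/slow cells had 9 of 24 against 732 of 2798, and slow/slow cells 15 of 36 against 897 of 3005. In WT/WT cells 4 of these 26 members and 524 of these 2659 genes lay below 0. With the 2.5-kb entries kept the WT/WT median turned to −0.567 kb over 48 members, with 3 called farther and 1 nearer. In that setting the WT/slow median was 1.80 kb over 43 members, with 3 called farther and 2 nearer. The slow/slow median was then 17 kb over 48 members, with 4 called farther and 1 nearer. Without WT/WT replicate 2 the WT/WT median was 22.6 kb over 27 members, with 10 called, without WT/WT replicate 1 it was 7.23 kb over 10 members, with 1 called, and without WT/WT replicate 3 it was 12.8 kb over 10 members, with 4 called. Leaving out replicate 1, 2 or 3 gave 6, 6 and 4 calls in WT/slow cells and 14, 4 and 8 in slow/slow cells.

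Progress in slow/slow cells minus that in WT/WT cells was tested as an interaction in 29 members. Its median was 4.4 kb, and 0 members were called by limma, where 50 of 3359 genes (1.49%) were called. An unadjusted p under 0.05 was found in 5 members and in 436 of 3359 genes. The median was 13.3, −2.67 and 8.21 kb without WT/WT replicate 1, 2 or 3, and without slow/slow replicate 3 it was 7.08 kb. The member nearest to the threshold was Cul5, at 28.1 kb with an adjusted p of 0.0572 in limma.

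Among the 19 deubiquitinases, 16 had a lower mean in slow/slow cells at 5 min, with a median of −2.97 kb. At 15 min 10 could be tested, 6 lay below 0, and the called members went in both directions.

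Usp34 (chr11:23306895-23490560, plus strand, GRCm38), a large deubiquitinase that acts on axin in Wnt signalling, had boundaries of 50.4, 2.5 and 44.2 kb at 15 min in WT/WT cells, replicates 1 to 3. It had 33.9, 2.5 and 24.9 kb in WT/slow cells and 30.4, 34.1 and 29.6 kb in slow/slow cells. Replicate 2 of WT/WT and of WT/slow cells stood at 2.5 kb, which the fit leaves out, and the other WT/WT boundaries lay above every boundary of WT/slow and slow/slow cells. The boundary fell by 15.9 kb in slow/slow cells (SE 4.18, adjusted p = 0.0354, limma) and by 17.9 kb in WT/slow cells (SE 4.56, adjusted p = 0.0412). In exon terms the mean front lay in intron 8 in WT/WT cells and in intron 3 in both other genotypes. At 5 min the WT/WT values were 12.5, 21.3 and 15.3 kb and the slow/slow values 14.1, 13.4 and 12.9 kb, which overlap.

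The Usp34 calls depended on settings. With the 2.5-kb entries kept, the slow/slow difference was −1 kb with an adjusted p of 1, and over 10 alternatives that p ran from 0.0237 to 1, with 4 keeping the call. Leaving out slow/slow replicate 1, 2 or 3 gave adjusted p-values of 0.107, 0.0922 and 0.134 in limma. In WT/slow cells the p ran from 0.0394 to 0.756 over 8 alternatives, with 3 keeping the call.

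Usp40 (chr1:87945121-88008551, minus strand), a less studied USP enzyme, went the other way. Its boundaries at 15 min were 8.4, 8.5 and 9.5 kb in WT/WT cells, 30.2, 21.2 and 2.5 kb in WT/slow cells and 22.2, 24.5 and 30.3 kb in slow/slow cells. The 3 WT/WT values lay together and under all the slow/slow values, and close to the 8.5, 14.7 and 8.5 kb of WT/WT cells at 5 min. At 15 min the boundary rose by 16.9 kb in slow/slow cells (SE 3.46, adjusted p = 0.0146, limma) and by 16.9 kb in WT/slow cells (SE 3.84, adjusted p = 0.0316). The slow/slow call held in 10 of 13 alternatives, with adjusted p-values from 0.0101 to 0.0909, and was lost with the 2.5-kb entries kept (0.0625) and without slow/slow replicate 2 (0.0529) or 3 (0.0909). In WT/slow cells it held in 2 of 10, with p-values from 0.0317 to 0.538, and the p with the replicate block was 0.0552. Progress in Usp40 was 16.6 kb in slow/slow cells (adjusted p = 0.00943) and −1.77 kb in WT/WT cells (adjusted p = 0.808), and their difference of 18.3 kb had an adjusted p of 0.144.

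Usp25, a deubiquitinase of immune and receptor signalling, was called in WT/slow cells. Its 15-min boundaries were 31.5, 3.3 and 42.3 kb in WT/WT cells, 58.2 kb in WT/slow replicates 1 and 3 with no call in replicate 2, and 37.0, 40.5 and 24.7 kb in slow/slow cells. Both WT/slow values exceeded all the others. They lay close to the highest boundary of any gene in these 2 samples, 59.2 and 58.5 kb. WT/WT replicate 2 lay far under the rest. The WT/slow boundary rose by 32.5 kb (SE 8.37, adjusted p = 0.0401, limma), and by 21.3 kb without WT/WT replicate 2 (adjusted p = 0.0517). Over 9 alternatives the adjusted p ran from 0.00999 to 0.310, with 3 keeping the call, and it was 0.0733 with the replicate block.

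Usp53, a USP family protein of cell junctions, had the largest difference of the members between slow/slow and WT/WT cells at 15 min, without passing the test. It stood at 3.4, 2.5 and 3.4 kb in WT/WT cells, at 2.5 kb in all 3 WT/slow replicates and at 31.8, 29.2 and 29.2 kb in slow/slow cells. No slow/slow value came near the others. The difference was 26.7 kb (SE 8.13, adjusted p = 0.0699, limma), and it passed with the 2.5-kb entries kept, on the log2 scale and with the replicate block (adjusted p = 0.0178, 0.00577 and 0.0283). At 5 min, however, WT/WT boundaries were 31.7, 18.6 and 28.4 kb, all above those of WT/WT cells at 15 min.

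Usp32, a membrane-anchored deubiquitinase, had the strongest 5-min contrast among the USP genes. Its 5-min boundaries were 30.2, 20.8 and 37.0 kb in WT/WT cells, 13.4, 20.2 and 15.4 kb in WT/slow cells and 11.4, 12.1 and 7.3 kb in slow/slow cells. The genotypes did not overlap, with WT/WT highest and slow/slow lowest. The slow/slow difference of −19.1 kb (SE 4.31) had an adjusted p of 0.293 in limma and did not pass. At 15 min WT/WT cells had 45.6, 2.5 and 45.3 kb and slow/slow cells 30.6, 39.3 and 31.7 kb, with an adjusted p of 0.194.

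Usp46 had 21.4, 17.3 and 18 kb at 5 min in WT/WT cells, 2.5, 11.5 and 9.4 kb in WT/slow cells and 12.1, 11.3 and 7.3 kb in slow/slow cells. Both other genotypes lay under all WT/WT values and overlapped each other, and the slow/slow difference of −8.67 kb had an adjusted p of 0.716. Usp7, which acts on Mdm2 and p53, was among the 3 members with the largest upward slow/slow difference at 5 min. It had 14.7, 24.1 and 6.0 kb in WT/WT cells and 18.6, 21.1 and 17.3 kb in slow/slow cells, and the difference of 4.07 kb lay within the spread of WT/WT cells (SE 3.94). With 1 library left out the difference ran from −0.4 to 8.65 kb. From its RefSeq start, 53.966 kb downstream, Usp7 had 14.7, 18.9 and 12.7 kb in WT/WT cells and 13.8, 12.4 and 10.1 kb in slow/slow cells, a difference of −3.33 kb. Usp42, the shortest member and a deubiquitinase of histone H2B, kept boundaries of 12.6, 11.8 and 12.4 kb at 15 min in WT/WT cells. It stood at 2.5 kb in all 6 samples of the other genotypes, so the fit had no value for them. With the 2.5-kb entries kept the slow/slow difference was −9.77 kb (adjusted p = 0.0502, limma). The transcript is 22.0 kb long, under the slow/slow member medians of 29.6 to 33.8 kb at 15 min. These 2.5-kb entries thus do not show a shorter front.

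**Figure D4:**
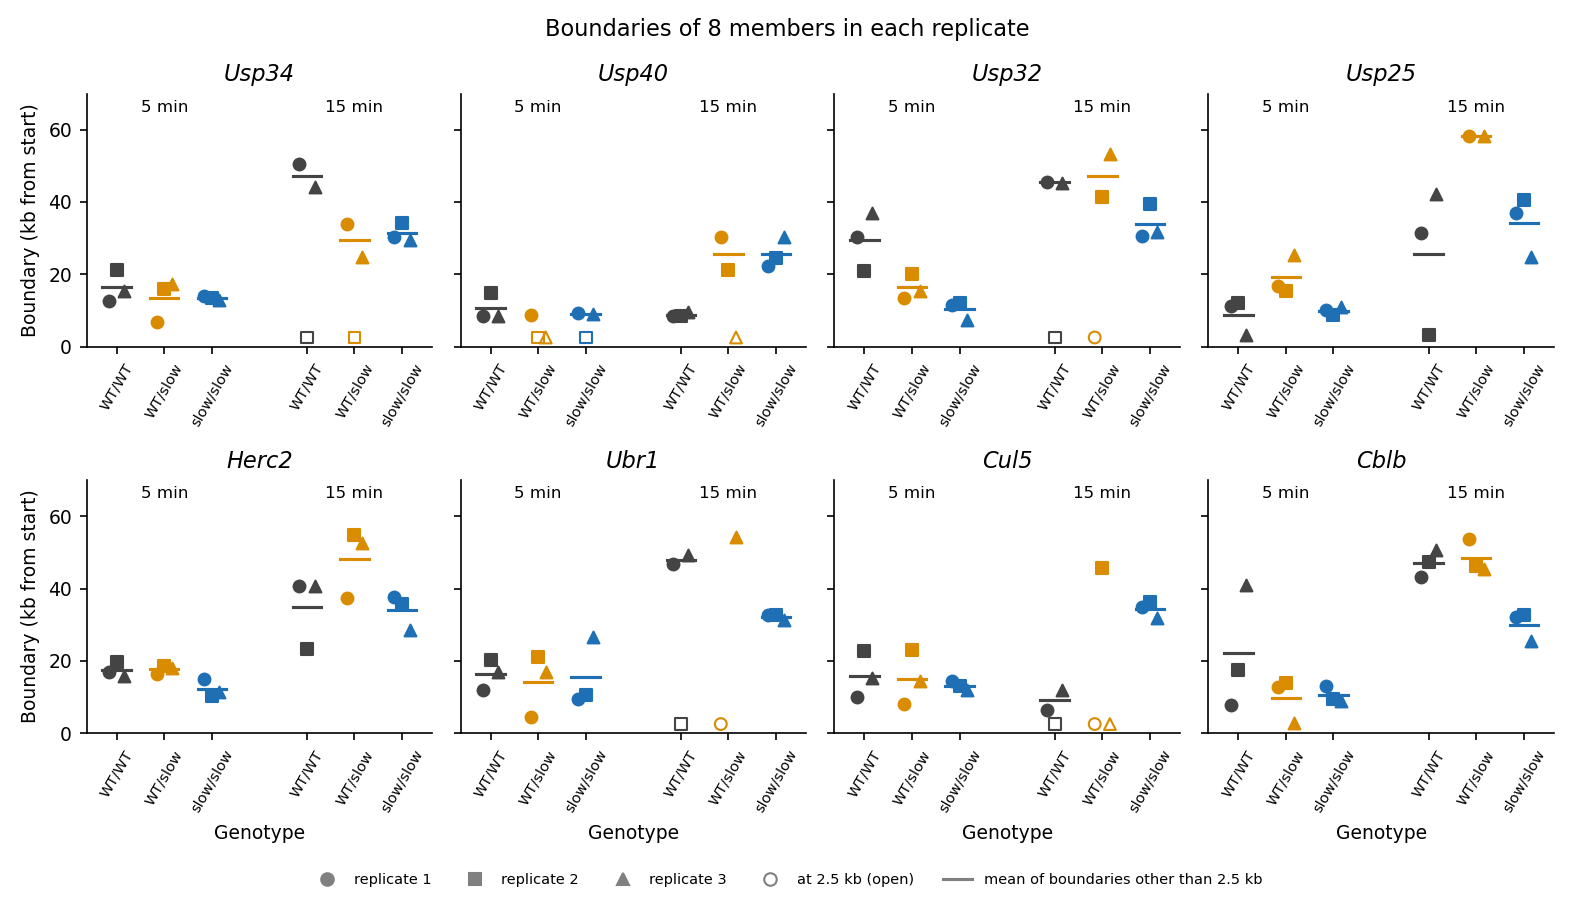
Boundary in each replicate (symbols, kb from the transcript start) of 8 members by genotype at 5 and 15 min, open where the value is 2.5 kb, with a line at the mean of the other values. Usp40 and Cul5 have higher slow/slow than WT/WT boundaries at 15 min, while Usp34 has lower ones and Cblb lower values that did not pass the test.

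Among the 14 HECT ligases limma called 0 of 13 tested at 5 min and 0 of 9 at 15 min, in slow/slow and in WT/slow cells. At an unadjusted p under 0.05 there were 1 and 0 in slow/slow cells and 0 and 1 in WT/slow cells. Over all genes 4.59% rose and 3.28% fell at 15 min in slow/slow cells, and 3.29% and 1.92% in WT/slow cells. Other settings called Ube3a, with the 2.5-kb entries kept, and Herc2, in WT/slow cells without WT/slow replicate 1. Over every transcript, a Hectd2 and a Ube3a transcript were called at 15 min in slow/slow cells. The Hectd2 transcript starts 39 bases downstream and rose by 21.2 kb (adjusted p = 0.0299, limma), against −10.5 kb from the longest. The Ube3a transcript starts 14.106 kb downstream and rose by 14.5 kb (adjusted p = 0.0481, limma). At 5 min 12 of the 13 had a lower slow/slow mean, with a median of −2.77 kb, and at 15 min 4 of 9 did, with a median of 2.63 kb.

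Herc2 and Smurf1 were the HECT ligases with a boundary other than 2.5 kb in all 18 samples at 5 and 15 min. Herc2, a giant ligase of DNA double-strand break signalling, had 17, 19.6 and 15.9 kb in WT/WT cells at 5 min, 16.3, 18.7 and 18.1 kb in WT/slow cells and 15.1, 10.3 and 11.5 kb in slow/slow cells. Only the slow/slow values stood apart, all of them under the lowest of the other genotypes. From Herc2 transcripts that start 0.512 and 0.624 kb downstream, slow/slow replicate 3 read 33.1 and 32.8 kb at 5 min. The slow/slow differences there were 4.23 and 5 kb, and −4.87 kb from the transcript that starts 0.136 kb downstream. At 15 min it had 40.8, 23.2 and 40.7 kb in WT/WT cells, 37.5, 54.8 and 52.5 kb in WT/slow cells and 37.6, 35.8 and 28.4 kb in slow/slow cells. The ranges of the 3 genotypes overlap at this time. The slow/slow differences were −5.20 kb at 5 min and −0.967 kb at 15 min (adjusted p = 0.920 and 0.943, limma), and the 15-min difference ran from −6.82 kb (without WT/WT replicate 2) to 1.98 kb (without WT/WT replicate 1).

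Smurf1, a ligase of BMP and TGF-beta signalling, had 47.4, 3.0 and 5.5 kb in WT/WT cells at 15 min and 33.6, 31.9 and 26.0 kb in slow/slow cells. A single WT/WT replicate lay above the slow/slow values and the rest lay below. The difference was 11.9 kb with an SE of 11.7 kb, and ran from 4.05 to 26.25 kb with 1 library left out. Its relative Smurf2 had 45.7, 21.5 and 36.2 kb at 5 min in WT/WT cells, 9.8, 18.3 and 20 kb in WT/slow cells and 13.3, 10.1 and 7.7 kb in slow/slow cells. WT/WT lay above both other genotypes in all replicates, and the slow/slow difference of −24.1 kb (SE 9.68) had an adjusted p of 0.720. From the next longest Smurf2 transcript, 0.245 kb downstream, WT/WT replicate 1 read 14.4 kb and slow/slow replicate 1 read 15.3 kb. The genotypes overlapped there, and the difference was −13.4 kb.

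Trip12, a ligase that limits ubiquitin signals at broken DNA, had 37.5, 2.5 and 52.1 kb at 15 min in WT/WT cells, 27.7, 27.8 and 29.7 kb in WT/slow cells and 2.5, 32.3 and 29.2 kb in slow/slow cells. Apart from the 2.5-kb entries, WT/WT boundaries exceeded the rest, and the slow/slow difference was −14.1 kb (SE 11.7, adjusted p = 0.552, limma). Nedd4l, the longest member and a regulator of sodium channels, varied widely among replicates at 15 min. It had 13.6, 2.5 and 30.8 kb in WT/WT cells, 2.8, 47.5 and 20.9 kb in WT/slow cells and 50.9, 34.3 and 20.6 kb in slow/slow cells, all within its first intron of 108.3 kb. The difference of 13.1 kb had an SE of 11.6 kb, and ran from 5.25 to 20.4 kb with 1 library left out.

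Wwp2, a ligase known for acting on the pluripotency factor Oct4, had 3 boundaries other than 2.5 kb in 18 samples, namely 2.4 kb in WT/slow cells and 2.9 and 3.1 kb in slow/slow cells at 5 min. Its other transcripts from nearly the same start read alike. A transcript that starts 66.2 kb downstream had 15.9, 22.8 and 23.2 kb at 15 min in WT/WT cells and 2.5, 2.5 and 23.1 kb in slow/slow cells.

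Of the 4 UBR ligases, Ubr1, which binds amino-terminal degrons, reached 46.7, 2.5 and 49.3 kb at 15 min in WT/WT cells and 32.6, 32.6 and 31.4 kb in slow/slow cells. In WT/slow cells it had 2.5 kb, no call and 54.2 kb. Outside replicate 2 the WT/WT boundaries lay above all the slow/slow ones, with mean fronts in intron 20 and intron 12. The difference was −15.8 kb (SE 5.75, adjusted p = 0.128, limma) and did not pass. Progress was called in both genotypes, at 31.7 kb in WT/WT cells and 16.7 kb in slow/slow cells, and the difference of −14.9 kb between them had an adjusted p of 0.471.

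Ubr4, a giant ligase of the same family, had 13.1, 48.0 and 44.6 kb at 5 min in WT/WT cells, 9.4, 48.3 and 11 kb in WT/slow cells and 9.7, 10.4 and 10 kb in slow/slow cells. The slow/slow values lay together and under every WT/WT value. The difference of −25.2 kb (SE 10.6) was the largest of any member at 5 min and had an adjusted p of 0.763. Ubr3, a family member with 2.7, 17.5 and 9.3 kb in WT/WT cells and 8.0, 19.3 and 13.3 kb in slow/slow cells at 5 min, differed by 3.70 kb (SE 8.30), from 0.133 to 7.53 kb with 1 library left out. At 15 min it had 6.6, 2.5 and 34.2 kb and 36.8, 36.2 and 29.6 kb in the same order, a difference of 13.8 kb with an adjusted p of 0.440.

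Birc6, an inhibitor of apoptosis that joins E2 and E3 activity in a single protein, had 3.9, 22.5 and 15.6 kb at 5 min in WT/WT cells, 27.2, 21.7 and 22.6 kb in WT/slow cells and 11.1, 13.2 and 12 kb in slow/slow cells. WT/slow and slow/slow values did not overlap, while the WT/WT values ran from under the lowest slow/slow value to above the lowest WT/slow value. At 15 min it had 15.7, 2.5 and 2.5 kb in WT/WT cells, too few boundaries for the fit, and with the 2.5-kb entries kept the slow/slow difference was 17.6 kb (adjusted p = 0.312, limma).

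Among the 5 cullins, scaffolds that hold a RING protein and a substrate receptor, 4 had a lower slow/slow mean at 5 min and the median was −3.43 kb. Cul5 (chr9:53614582-53670014, minus strand), which works with SOCS box receptors, had 6.3, 2.5 and 11.9 kb at 15 min in WT/WT cells. It had 2.5, 45.7 and 2.5 kb in WT/slow cells and 34.9, 36.3 and 31.9 kb in slow/slow cells. Every slow/slow value lay above every WT/WT value, and a single WT/slow replicate lay higher still. The boundary rose by 25.3 kb in slow/slow cells (SE 4.72, adjusted p = 0.00846, limma).

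At 5 min Cul5 had read 9.9, 22.6 and 15.2 kb in WT/WT cells and 14.4, 12.9 and 12 kb in slow/slow cells. From 5 to 15 min the slow/slow boundary rose by 21.3 kb (adjusted p = 0.00425, limma), and the WT/WT difference was −6.80 kb (adjusted p = 0.401). The 15-min call held in 6 of 9 alternatives, with adjusted p-values from 0.00646 to 0.0681. It was lost with the 2.5-kb entries kept (0.0681), on the log2 scale (0.0515) and without slow/slow replicate 2 (0.0502). Without WT/WT replicate 1 or 3 too few boundaries were left for the fit.

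Cul1, the scaffold of SCF ligases, had the largest upward slow/slow difference at 5 min, with 3.9, 19.4 and 17.5 kb in WT/WT cells and 15.8, 11.7 and 48.5 kb in slow/slow cells. The difference of 11.7 kb had an SE of 8.50 kb, and without slow/slow replicate 3 it was 0.150 kb. From the next longest Cul1 transcript, which starts under 1 kb upstream, the slow/slow values were 16.1, 12.2 and 11.8 kb and the difference was −0.0667 kb. The F-box receptors Fbxw7, Fbxw11 and Btrc, which choose the phosphorylated substrates of SCF ligases, each had a lower slow/slow mean at 5 min, by a median of −5.33 kb, with 0 called by limma and 0 at an unadjusted p under 0.05. At 15 min their slow/slow boundaries ran from 29.4 kb in Btrc to 36.7 kb in Fbxw7.

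The RING ligases showed the lowest class median at 15 min, −18.5 kb over Mib1 and Cblb, with 0 called by limma and 1 at an unadjusted p under 0.05. Cblb (chr16:52031549-52208047, plus strand), which restrains T-cell and receptor signalling, had 43.1, 47.4 and 50.6 kb at 15 min in WT/WT cells, 53.7, 46.3 and 45.3 kb in WT/slow cells and 32, 32.6 and 25.5 kb in slow/slow cells. It had a boundary other than 2.5 kb in all 18 samples. All slow/slow values lay under all values of the other genotypes, which overlap each other. The difference of −17 kb (SE 6.25) had an adjusted p of 0.117 in limma and did not pass, and without WT/WT replicate 3 it was −15.2 kb with an adjusted p of 0.0464. That p ran from 0.0464 to 0.628 over its alternatives. Progress in Cblb was called in each genotype, at 25 kb in WT/WT cells, 38.6 kb in WT/slow cells and 19.6 kb in slow/slow cells.

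Cblb and Herc2 are shown at the sequence they had reached, as 2 of the 3 members with a boundary other than 2.5 kb in every sample at both times. Smurf1 is not shown. The lines give the 100-base bin that ends at the median replicate's 15-min boundary, in capitals, with 20 bases on each side in lower case, read from GRCm38.p6 (RefSeq). All are on the plus strand. The Cblb bins, at 47.4 and 32 kb (chr16:52078829-52078968 and chr16:52063429-52063568), both lie in intron 3. The Herc2 bins, at 40.7 and 35.8 kb (chr7:56090833-56090972 and chr7:56085933-56086072), end in exon 8 and in intron 5.
Cblb WT/WT front: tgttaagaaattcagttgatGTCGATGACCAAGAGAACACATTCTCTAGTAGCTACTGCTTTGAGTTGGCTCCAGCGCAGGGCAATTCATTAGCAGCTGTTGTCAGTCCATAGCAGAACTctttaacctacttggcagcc
Cblb slow/slow front: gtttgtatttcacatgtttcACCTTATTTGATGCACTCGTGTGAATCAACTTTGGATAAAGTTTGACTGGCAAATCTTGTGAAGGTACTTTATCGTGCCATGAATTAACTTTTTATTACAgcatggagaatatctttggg
Herc2 WT/WT front: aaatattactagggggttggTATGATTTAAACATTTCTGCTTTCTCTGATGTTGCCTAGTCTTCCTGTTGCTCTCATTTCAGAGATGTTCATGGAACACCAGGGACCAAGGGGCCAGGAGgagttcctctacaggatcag
Herc2 slow/slow front: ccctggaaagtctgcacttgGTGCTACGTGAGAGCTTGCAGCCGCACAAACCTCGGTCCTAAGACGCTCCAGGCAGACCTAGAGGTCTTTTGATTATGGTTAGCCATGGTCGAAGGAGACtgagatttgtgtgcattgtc
The G and C content of the bins was 48.0% and 34.0% in Cblb and 45.0% and 54.0% in Herc2, in the same order.

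Mib1, which ubiquitylates Notch ligands, had 48.3, 2.5 and 51.3 kb at 15 min in WT/WT cells, 3.2, 3.3 and 53.3 kb in WT/slow cells and 30.1, 31.7 and 27.8 kb in slow/slow cells. Outside replicate 2, WT/WT boundaries lay above the slow/slow ones, and WT/slow values fell on both sides. The slow/slow difference of −19.9 kb had an SE of 12.3 kb and an adjusted p of 0.382.

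Position within the gene set what these distances crossed. The median first intron of the members was 16.5 kb long, and at 5 min the mean front lay in intron 1 in 33 of 49 members in slow/slow cells and in 26 of 48 in WT/WT cells. In Usp32, whose intron 1 spans 35.7 kb, the 15-min front lay in intron 1 in slow/slow cells and in intron 2 in WT/WT cells. In Ubr1 the fronts of these genotypes lay in introns 12 and 20 at 15 min, and in Usp34 in introns 3 and 8.

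The transcript chosen for a gene changed some results. In Usp34, a transcript that starts 21 bases downstream had 2.8, 2.5 and 44.2 kb at 15 min in WT/WT cells and 31.5, 34.1 and 30.6 kb in slow/slow cells. WT/WT replicate 1 thus read 50.4 kb from the longest transcript and 2.8 kb from this start, and the difference was 8.57 kb (adjusted p = 0.682, limma) in place of a fall. In Usp40, a transcript that starts 17 bases away had 8.4, 38.3 and 9.5 kb in WT/WT cells, with a difference of 7.37 kb (adjusted p = 0.596). In Cul5, the transcript from the RefSeq start, 2.507 kb downstream, had 4.5, 2.5 and 6.0 kb in WT/WT cells and 32.4, 35.0 and 31.2 kb in slow/slow cells, with a difference of 27.6 kb (adjusted p = 0.00452). A further Cul5 transcript had 7.2, 2.5 and 36.6 kb in WT/WT cells, with a difference of 10.7 kb (adjusted p = 0.534). Over every transcript at 15 min, 7 of 36 members were called, each through at least 1 transcript. Among all 12412 transcripts tested, 535 rose and 441 fell. Members had 1 to 10 such transcripts, so the count of members and that of transcripts are unlike. The 7 members included Usp47, Fbxw7, Hectd2 and Ube3a, each higher in slow/slow cells. A Usp47 transcript that starts under 1 kb upstream rose by 31.4 kb (adjusted p = 0.00272, limma), against −1.47 kb from the longest. In Fbxw7, a transcript that starts 48.877 kb downstream rose by 34.8 kb (adjusted p = 0.0123), against 0.683 kb.

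**Figure D5:**
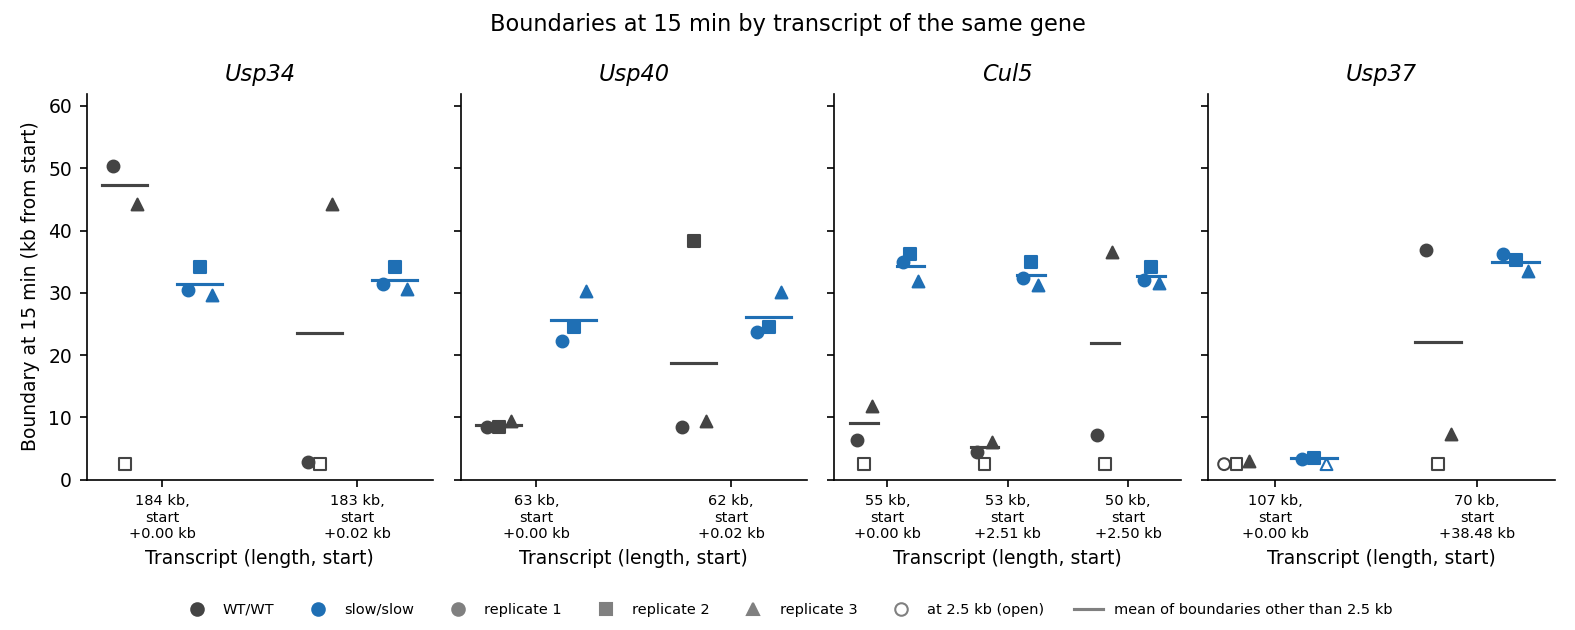
Boundary at 15 min in each replicate (kb from each transcript's own start) for transcripts of Usp34, Usp40, Cul5 and Usp37, which the axis names by length and by the distance of their start from that of the longest transcript. A single WT/WT replicate changes place between transcripts of Usp34, Usp40 and Cul5, while the slow/slow points of the transcripts drawn for these genes lie between 22.2 and 36.3 kb.

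The longest transcript did not always begin where RefSeq places the start. Of the 49 members, 33 had a RefSeq start within 1 kb, 5 (Usp7, Usp37, Ubr4, Trip12 and Cul5) had it farther downstream, and 11 were missing from the list of RefSeq starts that was used. Ubr4 from its RefSeq start, 28.1 kb downstream, had 13.4, 20.1 and 11.6 kb at 5 min in WT/WT cells and 13.3, 11.4 and 12.5 kb in slow/slow cells. The wide gap seen from the longest transcript was absent from there, with a difference of −2.63 kb.

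Usp37, a deubiquitinase of cyclin A, was the clearest case and is shown by the sequences of its starts. From the longest transcript its 15-min boundaries were 2.5, 2.5 and 3.0 kb in WT/WT cells and 3.4, 3.5 and 2.5 kb in slow/slow cells. From a transcript that starts 38.5 kb downstream, 18 bases from the RefSeq start, they were 36.8, 2.5 and 7.3 kb and 36.2, 35.2 and 33.5 kb. So slow/slow fronts lay in the band of the other members once counted from there. For the longest transcript and RefSeq, the lines give 100 bases before each start in lower case and the first 20 transcribed bases in capitals. They are on the minus strand of GRCm38.p6 (RefSeq), at chr1:74544265-74544384 and chr1:74505802-74505921, and were chosen after the values were seen.
Usp37 longest transcript start: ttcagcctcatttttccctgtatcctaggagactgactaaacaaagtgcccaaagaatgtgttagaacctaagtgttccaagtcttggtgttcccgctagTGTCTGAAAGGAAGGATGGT
Usp37 RefSeq start: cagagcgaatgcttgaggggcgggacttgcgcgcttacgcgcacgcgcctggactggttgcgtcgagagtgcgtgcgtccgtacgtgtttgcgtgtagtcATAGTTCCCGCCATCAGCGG
The G and C content was 44.2% at the first of these starts and 63.3% at the RefSeq start.

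The rest of the ubiquitin system was covered by a list of 199 other genes, of which 152 had a transcript of at least 20 kb. At 5 min 137 could be tested between slow/slow and WT/WT cells, and 112 had a lower slow/slow mean, with a median of −3.70 kb, 0 called by limma and 7 at an unadjusted p under 0.05. At 15 min 64 could be tested, the median was 1.36 kb, and 2 rose (Cyld and Fbxo11, where 4.59% of all genes tested rose) and 4 fell (Atg7, Uba6, Rnf150 and Rnf169, where 3.28% fell). Of 64 tested in WT/slow cells, 5 rose (Fbxo11, Otud7a, Ube4b, Usp29 and Usp31, where 3.29% of all genes rose) and 2 fell (Atg7 and Rnf150, where 1.92% fell). The members, by comparison, had medians of −3.33 kb at 5 min and −1.13 kb at 15 min.

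Atg7, the E1-like enzyme of autophagy, had replicates that lay close together in each genotype at 15 min. It had 48.6, 52.5 and 47.6 kb in WT/WT cells, 36.3, 34.4 and 36.6 kb in WT/slow cells and 32, 31.7 and 31.2 kb in slow/slow cells. The genotypes did not overlap, with WT/slow between the others. The boundary fell by 17.9 kb in slow/slow cells (SE 3.33, adjusted p = 0.00511, limma) and by 13.8 kb in WT/slow cells (SE 3.31, adjusted p = 0.0266). Uba6, an E1 that activates ubiquitin, had 45.7, 50.8 and 2.5 kb at 15 min in WT/WT cells and 32.5, 30.9 and 27.7 kb in slow/slow cells, and fell by 17.9 kb (adjusted p = 0.0272). Cyld, a deubiquitinase of NF-kB signalling, had 19.4, 2.5 and 2.7 kb and 34.5, 34.2 and 31.5 kb in the same order. It rose by 22.4 kb (adjusted p = 0.0254), with a WT/WT mean that rests on 19.4 and 2.7 kb.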

How the data were processed

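The deposited tables hold, for each annotated mouse transcript and sample, the wave-front boundary that the authors derived from 4sU-DRB-seq reads aligned with Bowtie2 2.2.9, as a distance in bases from the transcript start, each sample set against the average of the 0-min samples per the file names. The 27 samples of 3 genotypes harvested 5, 15 and 30 min after DRB removal were read, with 3 replicates per group, and the 30-min samples were described without a test. They hold no counts, so depth is unknown.

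The longest transcript of at least 20 kb stood for each of 11818 genes. Boundaries of 2.5 kb were treated as missing and counted apart. Group means at 5 and 15 min were compared with limma 3.58.1 in R 4.3.3 over all genes with at least 2 boundaries per group, with Benjamini-Hochberg adjustment at 0.05. Tables and figures were made with Python 3.11.15, NumPy 2.4.6, pandas 2.3.3 and Matplotlib 3.10.9, and the fit was tested on simulated data. Replicates of equal number in WT/WT and WT/slow cells correlated after group means were removed (r from 0.106 to 0.279, different numbers −0.190 to −0.0150), so a replicate block was run beside the fit.

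Named members were set by a rule fixed beforehand: those called between genotypes, the 5 largest differences each way at 15 min and 3 at 5 min, those with a boundary in all 18 samples, those mostly at 2.5 kb, and the longest and shortest. Usp37, Usp46, Birc6, the F-box genes and the members of counts of 5 or fewer were chosen after their values were seen. The members and gene lists were chosen with earlier results of these data known.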

Additional observations from a re-analysis of the deposited data

How the results depend on the processing

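The 6 called differences of named members gave 65 values under other settings: 31 kept direction and call, 33 lost the call and 1 reversed. The 19 uncalled ones gave 239 values, of which 222 were the same, 5 were called and 12 changed sign. The reversed value is Usp34 in slow/slow minus WT/WT at 15 min, where the median over every transcript of at least 20 kb was 3.15 kb. Its cause was not tested. The setting that left out boundaries of at most 5 kb, and each alternative for progress, were chosen after seeing the data. The fits restricted to transcripts of at least 60 kb or to 3 boundaries per group tested fewer genes, and that of every transcript tested more features, by construction. For the moved values the cause was not tested. Depth is unknown, so its limits could not be measured, and a count of 0 calls does not show that boundaries were equal.

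Genes called in slow/slow minus WT/WT at 5 min numbered 1, and 8 with the 2.5-kb boundaries kept, 11 on the log2 scale, 2 with only the genotypes compared, 0 at 60 kb or longer and 8 over every transcript. At 15 min they numbered 317, and 693 with 2.5 kb kept, 165 on the log2 scale, 128 at 60 kb or longer, 124 with all 3 boundaries, 190 without boundaries of at most 5 kb and 976 over every transcript. Higher and lower counts were 185 and 132, and 136 and 29 on the log2 scale, 585 and 108 with 2.5 kb kept, 64 and 126 without boundaries of at most 5 kb and 50 and 78 at 60 kb or longer. Members called numbered 3, and 1 at 60 kb or longer, 1 with all 3 boundaries and 7 over every transcript.

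Genes called in WT/slow minus WT/WT at 5 min numbered 1, and 8 with 2.5 kb kept, 8 on the log2 scale, 0 with the replicate block, 0 with only the genotypes compared, 0 at 60 kb or longer, 2 with all 3 boundaries, 5 without boundaries of at most 5 kb and 9 over every transcript. At 15 min they numbered 198, and 118 on the log2 scale (88 higher and 30 lower, against 125 and 73), 108 with only the genotypes compared, 118 at 60 kb or longer, 61 with all 3 boundaries, 113 without boundaries of at most 5 kb, 214 with 2.5 kb kept (162 higher and 52 lower) and 581 over every transcript. Members called numbered 3, and 0 on the log2 scale, 1 with the replicate block, 0 with only the genotypes compared, 1 at 60 kb or longer and 0 with all 3 boundaries.

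For slow/slow progress minus WT/WT progress the 50 genes became 289 with 2.5 kb kept, 76 with only the genotypes compared, 2 at 60 kb or longer, 9 with all 3 boundaries, 1 without boundaries of at most 5 kb and 162 over every transcript. The 0 members became 1 with 2.5 kb kept (Ube3a), 1 on the log2 scale (Usp53), 1 with only the genotypes compared (Cul5) and 2 over every transcript.

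For progress in WT/WT cells the 687 genes (634 farther and 53 nearer) became 343 on the log2 scale (251 and 92), 452 with the 2 genotypes, 312 with all 3 boundaries and 2081 over every transcript. With 2.5 kb kept 295 were farther and 660 nearer. The 9 members, each farther, became 4 with 2.5 kb kept (3 farther and 1 nearer), 3 on the log2 scale (2 and 1), 5 with the 2 genotypes, 4 with all 3 boundaries and 15 without boundaries of at most 5 kb, and the median became −0.567 kb with 2.5 kb kept. In WT/slow cells the 914 genes became 409 on the log2 scale, 542 with all 3 boundaries and 2732 over every transcript. With 2.5 kb kept 435 were farther and 688 nearer, against 884 and 30. The 10 members, each farther, became 5 with 2.5 kb kept (3 farther and 2 nearer), 4 on the log2 scale and 3 with all 3 boundaries, and the median became 1.80 kb with 2.5 kb kept and 23.7 kb without boundaries of at most 5 kb. In slow/slow cells the 1732 genes became 1075 with 2.5 kb kept (632 farther and 443 nearer, against 1714 and 18), 1147 on the log2 scale, 898 at 60 kb or longer and 4961 over every transcript. The 21 members, each farther, became 5 with 2.5 kb kept (4 farther and 1 nearer), 10 on the log2 scale, 36 with the 2 genotypes and 32 without boundaries of at most 5 kb, and the median with 2.5 kb kept was 17 kb.

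With the replicate block, genes called were 1, 336, 0, 186 and 37 and members called 0, 4, 0, 1 and 0, in the order slow/slow at 5 and 15 min, WT/slow at 5 and 15 min and the interaction, and the medians over members were −3.33, −0.967, −0.200, 0.847 and 4.23 kb. Residuals of equal replicate number correlated at 0.0141 to 0.108 between WT/WT and slow/slow cells (different numbers −0.102 to 0.0446) and at 0.0516 to 0.151 between WT/slow and slow/slow cells (different numbers −0.152 to 0.0265), so not every pair was over 0.1. Between WT/slow and slow/slow cells each sample correlated best with its own number, and at 15 min these r were 0.136, 0.102 and 0.116. Between WT/WT and slow/slow cells the exception was number 3 at 15 min. This is a hint from the data, since the labels do not say what a number marks.

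Leaving out each replicate in turn, where a lone sample is taken to vary like the other groups, gave these ranges for genes called, members called and the median over members. They were 0 to 10, 0 to 0 and −4.98 to −1.25 kb for slow/slow at 5 min, 127 to 247, 0 to 3 and −5.82 to 8.60 kb at 15 min, 0 to 8, 0 to 0 and −2.33 to 1.63 kb for WT/slow at 5 min, and 90 to 167, 0 to 2 and −2.23 to 21.7 kb at 15 min. The interaction gave 2 to 43, 0 to 0 and −2.67 to 13.3 kb. Progress gave 244 to 591, 1 to 10 and 7.23 to 22.6 kb in WT/WT cells, 331 to 669, 4 to 6 and 13.2 to 20.5 kb in WT/slow cells, and 409 to 1071, 4 to 14 and 19.3 to 21 kb in slow/slow cells.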

Other observations

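Ube3a, the HECT ligase lost in Angelman syndrome, had 4.2, 2.5 and 2.5 kb at 15 min in WT/WT cells, 13.4, 31.0 and 28.3 kb in WT/slow cells and 37.1, 36.2 and 31.6 kb in slow/slow cells. Its WT/WT values were all under those of the other genotypes, and with a single WT/WT boundary other than 2.5 kb it could not be tested as described. Usp8, a deubiquitinase of endosomes, stood at 2.5 kb in all WT/WT replicates and had 25.4, 34.1 and 25.8 kb in slow/slow cells, and Usp28 had 34.1, 30.5 and 29.1 kb there against 2.5 kb in all WT/WT replicates. Both were chosen after their values were seen.

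At 30 min, 389 of the 441 member boundaries were at 2.5 kb, with 25 members there in all 9 samples and 13 in 8 of 9. Over all genes 55.6% of entries were at 2.5 kb at that time. Usp40 had 6.0, 3.9 and 3.9 kb in WT/WT cells and 55.8, 5.5 and 2.5 kb in slow/slow cells, and Herc1 had 9.9 kb in all 3 WT/slow replicates. Across members, boundaries of slow/slow replicates at 15 min had Spearman correlations of 0.580, 0.289 and 0.570 (n = 34, 34 and 41), and those of WT/WT replicates −0.164, 0.407 and −0.0455 (n = 11, 29 and 11).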
